A study of Mus musculus with 8 samples.

Results

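The genes described here encode 8 enzymes of fatty acid oxidation in mouse liver: Cpt1a, Cpt2, Acadm, Acadl, Acadvl, Hadha, Hadhb and Ehhadh. They were taken by gene symbol, and all 8 were measured, through 19 of the 62976 features (spots) on each array and as 8 of 20738 named genes. Ketone body synthesis, which uses the acetyl-CoA that this oxidation yields, is described beside them. The livers came from outbred male CD-1 mice kept for 7 days on a control diet (0 ppm NaPB, 4 arrays) or on one with 2500 ppm NaPB (4 arrays); the age of the mice is not in the labels. NaPB is sodium phenobarbital, which activates the nuclear receptor CAR in hepatocytes, and the labels name no transgene or deletion. The question is whether transcripts of these enzymes differed between the diets.

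Long-chain fatty acids enter mitochondria as carnitine esters, are turned back into acyl-CoA inside, and are shortened there by repeated rounds of dehydrogenation, hydration, a further dehydrogenation and thiolysis. Peroxisomes run a parallel chain for very long and dicarboxylic fatty acids. In liver many of these genes are known targets of PPARα, a nuclear receptor that is activated by fatty acids in fasting. CAR is known to interfere with fatty acid oxidation in some settings.

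None of the 8 genes passed the test between the diets. The fit was a linear model in limma with Benjamini-Hochberg adjustment over all genes, with calls made where the adjusted p was under 0.05. It called 0 of the 8, against 1.01% of all genes (209 of 20738), and it also called none of their 19 features when every feature was tested singly (1.02% of all features called; none of the 19 at an unadjusted p below 0.05). At an unadjusted p below 0.05 stood 1 of the 8, Hadha (12.5%, against 10.1% of all genes), and Hadha was also the gene whose diets did not overlap (12.5%, against 7.04%). All 8 log2 fold changes were below 0, with a median of −0.34, while 48.8% of all genes lay below 0 and their median was 0.01. The sign was common to the 8 after quantile normalization and after shifts of the 75th percentile or the median. It was not common to them with array weights (4 of 8 below 0, median −0.11). Without NaPB 4, 4 of 8 lay below 0 (median −0.06, against 0.05 for all genes). Leaving out control 1 and NaPB 4 together also left 4 of 8 below 0 (median −0.02). Without control 1, and likewise without control 3, 7 of 8 lay below 0. Without control 2 the median was −0.51. The count of all genes called was 365 without NaPB 4, and 88 to 119 without any 1 of the others except control 1 (145). Whether each array had its own mouse is not in the labels; p-values here rest on the spread between the arrays as deposited, which could be technical.

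The tissue label was checked on hepatocyte markers. The summed intensity of the 7 measured ones ran from 4241 to 7038 on the control arrays and from 2756 to 4976 on the NaPB arrays, lowest on NaPB 4. None of the 7 was called, and 1 lay above 0. Their median log2 fold change was −0.43, against −0.34 for the 8 oxidation genes. Cyp2b10, the P450 gene classically induced by phenobarbital, lay between 0.863 and 5.22 on the control arrays, at 521, 491 and 430 on NaPB 1 to 3 and at 77.7 on NaPB 4 (log2 fold change 6.84 ± 0.69, SE, limma adjusted p = 0.0018; 7.49 without NaPB 4). A pair of arrays stood apart, control 1 and NaPB 4, with array weights of 0.308 and 0.313 against 1.14 to 1.98 for the others. Log2 fold changes of single genes are therefore given below with all arrays and without NaPB 4. In whole liver RNA, fewer cells of a type and less RNA per cell cannot be told apart.

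**Figure D1:**
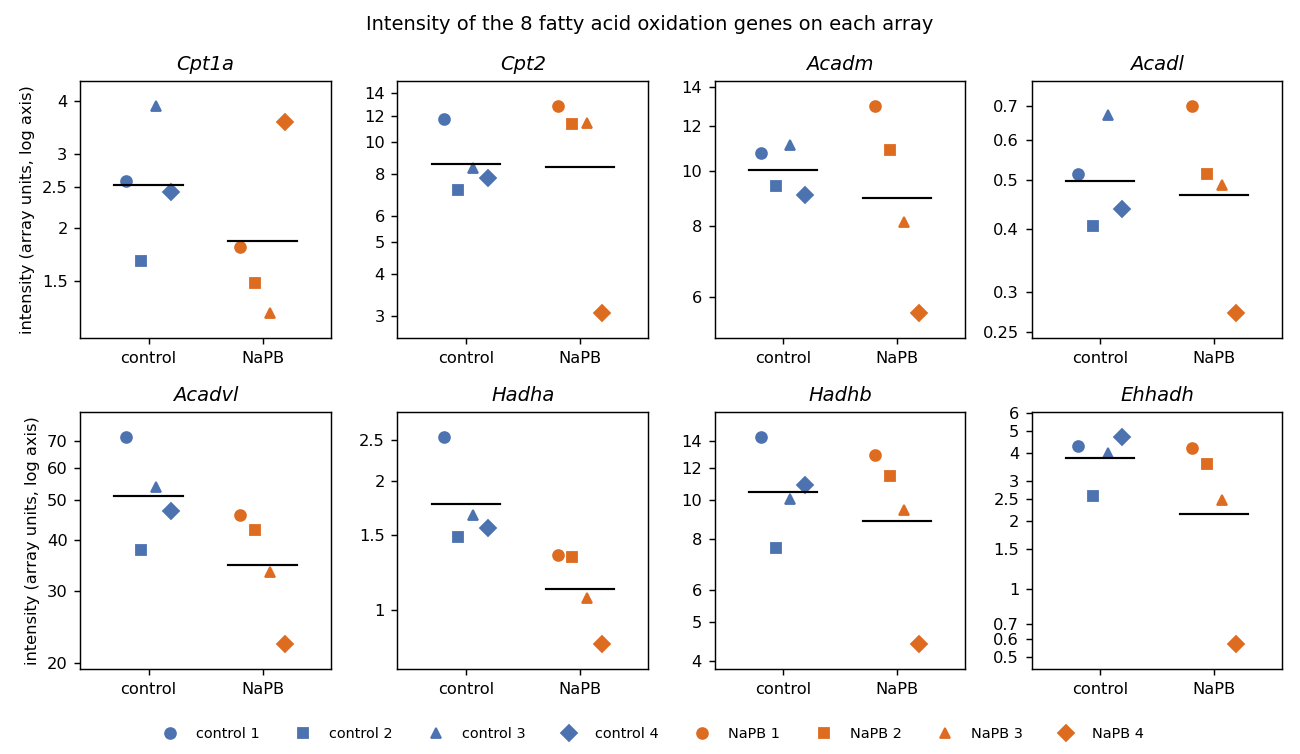
Intensity (log axis, array units) of each gene's brightest feature on 4 control and 4 NaPB arrays, with the geometric mean of each diet as a line. NaPB 4 is the lowest of the 8 arrays for 7 genes and lies above the other NaPB arrays for Cpt1a, and Hadha is the gene whose diets do not overlap.

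The carnitine shuttle comes first. Cpt1a encodes the liver form of carnitine palmitoyltransferase 1, which makes the carnitine esters at the outer mitochondrial membrane and is held back by malonyl-CoA. Its brightest feature read 2.59, 1.68, 3.89 and 2.43 on control 1 to 4, and 1.81, 1.49, 1.26 and 3.57 on NaPB 1 to 4. On this feature NaPB 2 and 3 lay below the lowest control array, whereas NaPB 4 lay within the control range. The log2 fold change was −0.44 ± 0.38 (SE, n = 4 and 4; 95% interval −1.29 to 0.41; limma adjusted p = 0.786). Without NaPB 4 it was −0.75 on this feature (95% interval −1.48 to −0.02, limma adjusted p = 0.34).

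Cpt1a was also the gene with the most features, 11, and these gave a view of the error within an array. Their log2 fold changes ran from −0.60 to −0.09, all below 0, with a median of −0.27 and a smallest limma adjusted p of 0.727. All 11 read higher on NaPB 4 than on each of NaPB 1 to 3. Their medians were 2.38, 1.37, 2.94 and 1.99 on control 1 to 4, and 1.68, 1.51, 1.17 and 2.65 on NaPB 1 to 4. The order of the arrays was thus similar over features of this gene, but NaPB 2 differed. By the medians NaPB 2 (1.51) lay above control 2 (1.37), the lowest control array, whereas on the brightest feature it lay below. NaPB 3 lay below control 2 on both measures. Features of 1 gene on an array measure the same RNA and are not replicates.

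**Figure D2:**
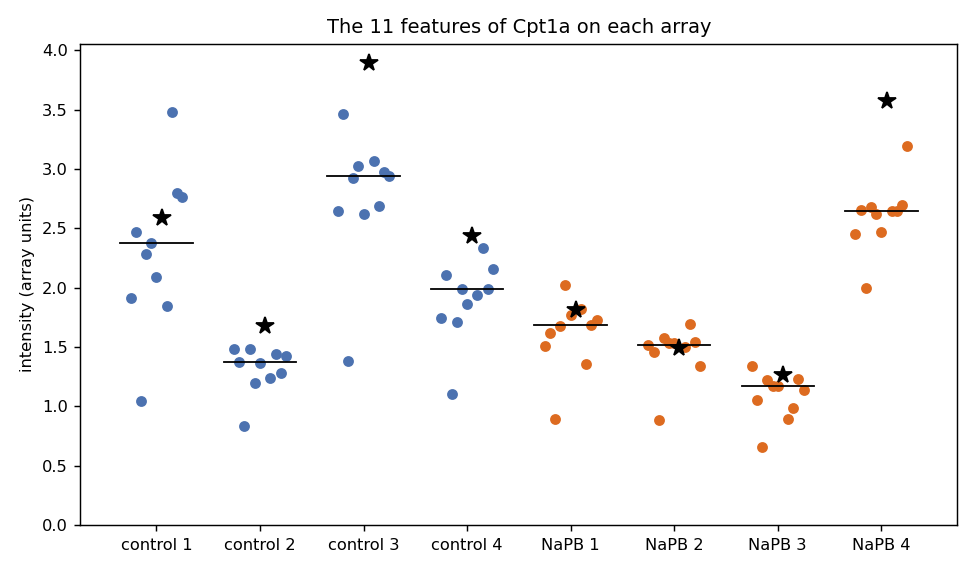
Intensity (array units, linear axis from 0) of the 11 features of Cpt1a on each array, with the median as a line and the brightest feature as a star. The features move together between arrays, with medians of 1.17 on NaPB 3 and 2.65 on NaPB 4.

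Cpt2 encodes carnitine palmitoyltransferase 2 of the inner membrane, which turns the carnitine esters back into acyl-CoA. Its brighter feature read 11.7, 7.18, 8.34 and 7.81 on control 1 to 4, and 12.8, 11.3, 11.4 and 3.05 on NaPB 1 to 4. NaPB 4 was 3.88-fold below the geometric mean of the other NaPB arrays, and those 3 lay close together, within 0.18 log2 units. With all arrays the log2 fold change was −0.03 ± 0.45 (SE; 95% interval −1.02 to 0.96; limma adjusted p = 0.992). Without NaPB 4 it was 0.46 (95% interval −0.12 to 1.04; limma adjusted p = 0.496). The dimmer feature of Cpt2 gave −0.13 with all arrays. It read 0.842, 0.727, 0.531 and 0.627 on control 1 to 4, and 0.761, 0.663, 0.636 and 0.444 on NaPB 1 to 4. On it NaPB 1 to 3 thus lay inside the control range. By their brightest features, the shuttle genes stood on opposite sides of the control mean on NaPB 1 to 3. Cpt1a stood at −0.48, −0.77 and −1.01 log2 units and Cpt2 at 0.58, 0.39 and 0.40. On NaPB 4 they stood at 0.50 and −1.50. The dimmer Cpt2 feature did not show this contrast on all 3 arrays. This contrast was noticed in the values and was not tested.

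The acyl-CoA dehydrogenases take the first step of each round, and the genes differ in the chain length their enzymes prefer. Acadvl, for very long chains, read 71.6, 37.8, 54.0 and 47.2 on the control arrays and 46.1, 42.4, 33.3 and 22.2 on the NaPB arrays. NaPB 3 and 4 lay below all controls and the diets overlapped. Acadvl stood at a log2 fold change of −0.56 ± 0.32 (SE; 95% interval −1.27 to 0.15; limma adjusted p = 0.649), and −0.35 without NaPB 4. It was −0.19 without control 1 and NaPB 4 together. Acadm, for medium chains, read 10.75, 9.39, 11.1 and 9.07 on the control arrays and 12.99, 10.9, 8.12 and 5.61 on the NaPB arrays. Its control arrays lay within 0.29 log2 units and its NaPB arrays spanned 1.21, on both sides of the controls. The log2 fold change of Acadm was −0.16 ± 0.31 (SE; 95% interval −0.84 to 0.51; limma adjusted p = 0.913), and 0.06 without NaPB 4. Acadl, for long chains, was dim but above the floor on every array (2 times the lowest value of the array), at 0.513, 0.405, 0.675 and 0.438 on the control and 0.702, 0.513, 0.489 and 0.272 on the NaPB arrays. It stood at −0.09 ± 0.33 (SE; 95% interval −0.83 to 0.65; limma adjusted p = 0.959), and at 0.17 without NaPB 4. All 3 dehydrogenase genes were lowest on NaPB 4.

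Hadha and Hadhb encode the α and β subunits of the mitochondrial trifunctional protein, which carries out the remaining steps on long chains. Hadha read 2.54, 1.48, 1.67 and 1.55 on the control arrays and 1.34, 1.33, 1.07 and 0.831 on the NaPB arrays. All 4 NaPB arrays lay below the lowest control. For Hadha the log2 fold change was −0.66 ± 0.29 (SE; 95% interval −1.30 to −0.02), a 1.58-fold lower mean, with an unadjusted limma p of 0.0457 that did not hold over all genes (limma adjusted p = 0.479). Without NaPB 4 it was −0.51 (limma adjusted p = 0.47), and without control 1 and NaPB 4 together it was −0.34. Hadhb read 14.4, 7.62, 10.05 and 10.9 on the control arrays and 12.97, 11.5, 9.45 and 4.41 on the NaPB arrays. Here NaPB 1 to 3 lay inside the control range and NaPB 4 below it. Hadhb stood at a log2 fold change of −0.24 ± 0.37 (SE; 95% interval −1.06 to 0.59; limma adjusted p = 0.893), and 0.10 without NaPB 4.

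The genes of these subunits lie head to head on chromosome 5 and 272 bases lie between their starts, so that the promoter windows of both genes overlap. This stretch is shown because the values of the pair are compared next. The sequence is from RefSeq (GRCm38.p6), chr5:30154981-30155252, read 5′ to 3′ on the plus strand from the start of Hadha towards that of Hadhb. Capitals mark the 228 bases that lie in the promoter windows of both genes.
Hadha to Hadhb: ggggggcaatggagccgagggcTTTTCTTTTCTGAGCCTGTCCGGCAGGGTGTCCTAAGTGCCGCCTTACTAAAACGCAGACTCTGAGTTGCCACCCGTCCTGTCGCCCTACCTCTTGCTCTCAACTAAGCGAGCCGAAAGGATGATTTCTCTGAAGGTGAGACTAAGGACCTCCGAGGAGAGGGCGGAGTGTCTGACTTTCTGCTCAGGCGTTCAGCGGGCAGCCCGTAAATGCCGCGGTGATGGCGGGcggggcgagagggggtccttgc
For each array the log2 difference of Hadha from its control mean minus that of Hadhb was 0.07, 0.21, −0.03 and −0.25 on control 1 to 4, and −0.71, −0.54, −0.58 and 0.16 on NaPB 1 to 4. Hadha thus lay lower relative to Hadhb on NaPB 1 to 3 than on any control array, and NaPB 4 lay within the control range. The mean on the NaPB arrays was −0.42 ± 0.39 (SD, n = 4), against 0 ± 0.19 (SD, n = 4) on the control arrays, and did not pass an exact permutation test (two-sided, as the doubled smaller tail, p = 0.114; the smallest this design allows is 0.0286). Without NaPB 4 the mean was −0.61 ± 0.09 (SD, n = 3), with an exact permutation p of 0.0571 counted the same way, which is the smallest that 3 arrays against 4 allow and cannot pass 0.05. This comparison was chosen after the values were seen.

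Ehhadh encodes the peroxisomal bifunctional enzyme, which combines hydratase and dehydrogenase activities and is a classical PPARα target. It read 4.31, 2.60, 4.00 and 4.73 on the control arrays and 4.23, 3.57, 2.47 and 0.570 on the NaPB arrays. NaPB 1 and 2 lay inside the control range, NaPB 3 just below it, and NaPB 4 was 5.87-fold below the geometric mean of the other NaPB arrays. This gave Ehhadh the widest interval of the 8, at −0.83 ± 0.56 on the log2 scale (SE; 95% interval −2.07 to 0.41; limma adjusted p = 0.727). Without NaPB 4 it was −0.19 (95% interval −0.89 to 0.51; limma adjusted p = 0.848).

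The intervals show what 4 arrays per diet could resolve. As folds of NaPB over control, their upper ends ran from 0.99 for Hadha to 1.94 for Cpt2, so none of the 8 reached a 2-fold higher level. Their lower ends ran from 0.239 for Ehhadh to 0.564 for Acadl. Those of Acadm and Acadl stopped short of a 2-fold lower level and those of the other 6 did not. These limits held for all 8 arrays and not without NaPB 4: the upper end of Cpt2 was then 2.06, the lower end of Ehhadh was 0.54, and the interval reached a 2-fold lower level for 3 genes, Cpt1a, Acadvl and Hadha, of which Acadvl just did so (0.4995). An adjusted p above the threshold does not show that a gene was equal on both diets.

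**Figure D3:**
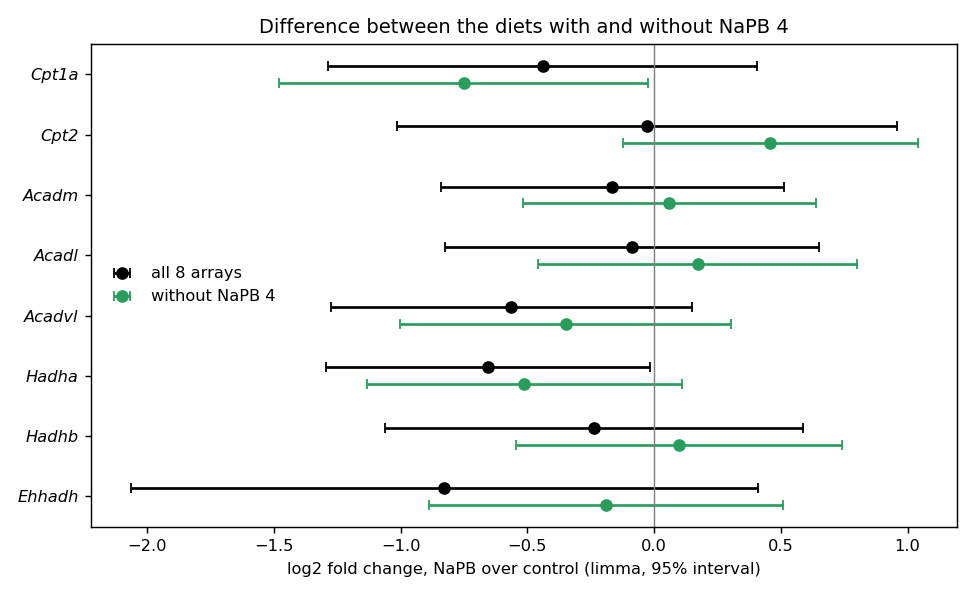
Log2 fold change, NaPB over control, with its 95% interval from limma for the 8 genes, from all 8 arrays (black) and without NaPB 4 (green). With all arrays the 8 points lie between −0.83 and −0.03, and without NaPB 4 those of Cpt2, Acadm, Acadl and Hadhb are above 0.

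The level on each array was compared over the 8 genes. NaPB 4 was the lowest of all 8 arrays for 7 of them, against 28.3% of all genes and 39.5% of genes at or above the median of mean intensity. The exception was Cpt1a. NaPB 4 and control 2 had the narrowest range among bright spots. Their 99th percentile was 62.3 and 65.8 times their 75th, against 81.1 to 124.7 times on the other arrays. The part of this narrower range in the levels of the 8 genes was not tested. Relative to each gene's control mean, the 8 genes averaged 0.28, −0.37, 0.15 and −0.06 log2 units on control 1 to 4, and 0.11, −0.11, −0.38 and −1.12 on NaPB 1 to 4. NaPB 1 to 3 thus lay within 0.38 log2 units of the control mean, and the control arrays within 0.37. Among 13394 genes above the floor on every array and outside the lists, those whose log2 values followed this average most closely were Hook3, Rab5b, Rubcn, Xrcc6 and Ppm1b. Their Pearson correlations with it over the 8 arrays, given as a description, ran from 0.988 to 0.993. All 5 were lowest on NaPB 4, and none was called between the diets (limma adjusted p from 0.71 to 0.827). Such genes share the arrays and their scaling with the oxidation genes.

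The ketone body genes came next in the pathway. Acat1 and Bdh1 are described here. Acat1 encodes the mitochondrial thiolase that joins acetyl-CoA units. It read 5.49, 3.23, 4.39 and 4.68 on the control arrays and 3.02, 2.15, 1.85 and 1.26 on the NaPB arrays, all 4 below the lowest control. Its log2 fold change of −1.15 ± 0.32 (SE) did not pass over all genes (limma adjusted p = 0.169), and was −0.93 without NaPB 4. Bdh1, the dehydrogenase that makes β-hydroxybutyrate, stood at −0.26 ± 0.35 (SE; limma adjusted p = 0.87), and at 0.03 without NaPB 4. Its 3 features gave −0.37 to 0.07 with all arrays.

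Among 17 genes of fatty acid uptake, activation and carnitine transfer, limma called none, 2 had an unadjusted p below 0.05, and 11 lay below 0 (median −0.14; −0.04 without NaPB 4). With all arrays, 10.1% of all genes had an unadjusted limma p below 0.05 and 48.8% lay below 0. The same shares stand beside the lists that follow. Counts and medians without NaPB 4 have another background: in that fit the median of all genes was 0.05. Slc27a5, a transport protein and bile acyl-CoA synthetase of liver, was lower on every NaPB array (95.2 to 164) than on every control array (173 to 320), and stood at −0.79 ± 0.29 on the log2 scale (SE; limma adjusted p = 0.353, and −0.64 without NaPB 4). It passed after quantile normalization (log2 −0.92, limma adjusted p = 0.0321), and its second feature gave −0.18. Crot, the peroxisomal carnitine octanoyltransferase, stood at −0.73 ± 0.31 (SE; limma adjusted p = 0.446, and −0.61 without NaPB 4). Cpt1c, the brain form of the palmitoyltransferase, was near the dim end at 0.184 to 0.754 and stood at 0.72 ± 0.42 (SE; limma adjusted p = 0.66, and 0.66 without NaPB 4), while its other feature gave −0.01.

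The remaining steps in mitochondria are served by other enzymes. Of 15 measured, limma called none, 2 had an unadjusted p below 0.05 and 12 lay below 0, with a median of −0.18. Without NaPB 4, 7 lay below 0 and the median was 0.08; this array was the lowest for 13 of the 15. Acadsb, the short branched-chain dehydrogenase, read 3.42 to 4.89 on the control and 1.10 to 2.59 on the NaPB arrays (log2 −1.08 ± 0.32, SE; limma adjusted p = 0.19, and −0.85 without NaPB 4), but its other feature gave 0.34. Acads, for short chains, stood at −0.58 ± 0.26 (SE; limma adjusted p = 0.494, and −0.43 without NaPB 4), with no overlap between 0.552 to 0.934 on NaPB and 1.02 to 1.25 on control arrays. Acaa2, the mitochondrial thiolase, stood at −0.62 ± 0.37 (SE; limma adjusted p = 0.665, and −0.30 without NaPB 4), and its 10 features gave −0.80 to −0.56.

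In the peroxisome, 14 other genes were measured. Limma called none, 1 had an unadjusted p below 0.05 and 11 lay below 0, with a median of −0.29. Without NaPB 4 the median was −0.07 and 8 lay below 0. Acaa1b, the peroxisomal thiolase that follows Ehhadh in the chain, read 28.5 to 48.3 on the control arrays, 26.0 to 34.6 on NaPB 1 to 3 and 4.59 on NaPB 4 (log2 −1.05 ± 0.57, SE; limma adjusted p = 0.617, and −0.38 without NaPB 4). The same array was the lowest for Ehhadh. Scp2, a sterol carrier protein and thiolase, stood at −0.80 ± 0.36 (SE; limma adjusted p = 0.493, and −0.50 without NaPB 4), while its other feature gave −0.33. Phyh, which hydroxylates phytanoyl-CoA, stood at −0.69 ± 0.32 (SE; limma adjusted p = 0.508, and −0.45 without NaPB 4). It passed after quantile normalization (log2 −0.80, limma adjusted p = 0.0486). Ech1, an enoyl-CoA isomerase, stood at −0.69 ± 0.33 (SE; limma adjusted p = 0.551, and −0.53 without NaPB 4).

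**Figure D4:**
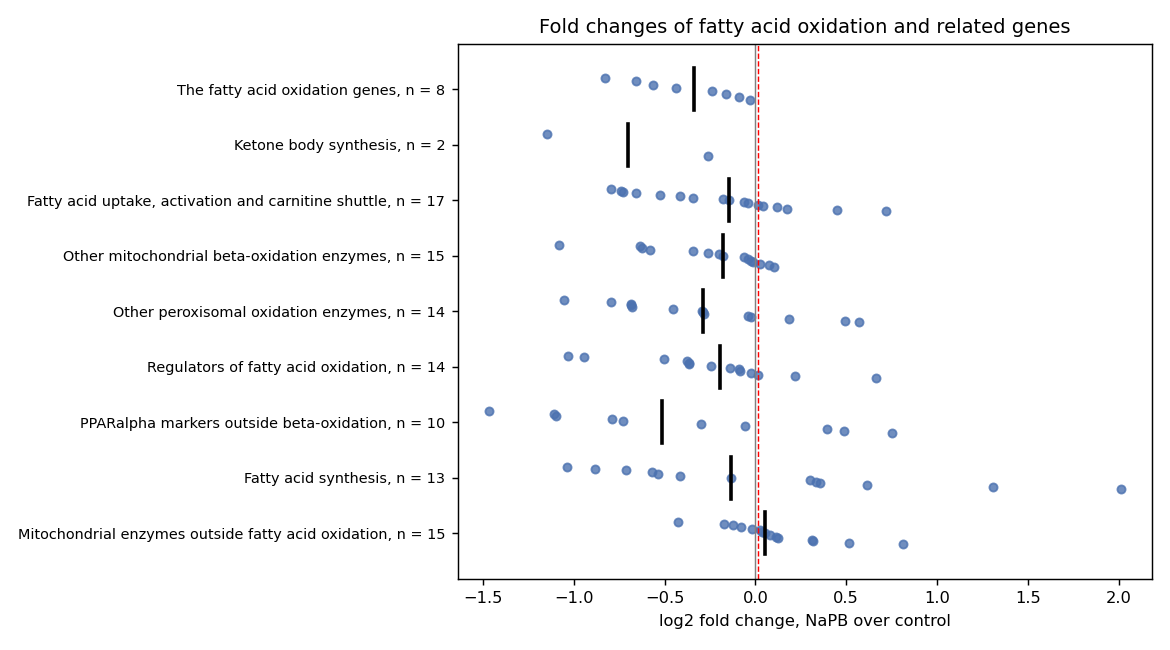
Log2 fold change, NaPB over control, of each gene of the 8 and of the related lists, with list medians as black bars and the median of all genes (0.01) as a dashed red line. The median of the 8 is −0.34 and that of mitochondrial enzymes outside fatty acid oxidation is 0.05.

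Among 14 regulators limma called none, 2 had an unadjusted p below 0.05 and 11 lay below 0 (median −0.19; −0.22 without NaPB 4). Ppara, which encodes PPARα, read 29.8, 16.4, 29.5 and 17.9 on the control arrays and 14.04, 13.6, 9.84 and 10.05 on the NaPB arrays. All 4 NaPB arrays lay below the lowest control. On the log2 scale Ppara stood at −0.94 ± 0.30 (SE; limma adjusted p = 0.249), and its 5 features gave −1.19 to −0.94. Without NaPB 4 it was −0.87 (limma adjusted p = 0.249). Ppard, the related receptor PPARδ, stood at −1.03 ± 0.39 (SE; limma adjusted p = 0.365, and −0.74 without NaPB 4), with the diets overlapping. Sirt3, the mitochondrial deacetylase, stood at −0.50 ± 0.32 (SE; limma adjusted p = 0.706, and −0.25 without NaPB 4).

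PPARα markers outside β-oxidation varied widely within each diet. Of 10, limma called none, 3 had an unadjusted p below 0.05 and 7 lay below 0 (median −0.51; −0.12 without NaPB 4 and −0.26 without control 1). The shares of all genes were 10.1% and 48.8%, in that order. Cyp4a14, a fatty acid hydroxylase, read 20.2, 0.0753, 18.5 and 11.5 on control 1 to 4, control 2 being at the floor, and 0.543 to 5.36 on the NaPB arrays (log2 −1.11 ± 1.56, SE; limma adjusted p = 0.879, and −1.05 without NaPB 4). Its log2 fold change was −3.05 without control 2 and −0.36 without control 1. Cyp4a10 stood at −0.79 ± 0.75 (SE; limma adjusted p = 0.808) and was also lowest among controls on control 2, at 3.70. With 1 array left out Cyp4a10 ran from −1.42 (without control 2) to −0.32 (without NaPB 3), and was −0.60 without NaPB 4. Acot1, a cytosolic acyl-CoA thioesterase, stood at −1.46 ± 0.48 (SE; limma adjusted p = 0.267, and −1.33 without NaPB 4). Angptl4, a secreted lipase inhibitor, stood at −1.10 ± 0.47 (SE; limma adjusted p = 0.459, and −1.37 without NaPB 4). Acot3, a peroxisomal thioesterase, stood on the other side at 0.75 ± 0.32 (SE; limma adjusted p = 0.441, and 0.94 without NaPB 4), while its other feature gave −0.35. Pdk4, the kinase that restrains pyruvate oxidation, stood at −0.30 ± 0.54 (SE; limma adjusted p = 0.908), and at 0.32 without NaPB 4.

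Genes of other metabolic paths were set beside these. Of 15 mitochondrial enzymes outside fatty acid oxidation limma called none, none had an unadjusted p below 0.05, and 5 lay below 0 (median 0.05; 0.33 and 2 below 0 without NaPB 4). NaPB 4 was the lowest array for 12 of these 15. Idh3a (0.81 ± 0.44, SE), Fh1 (0.52 ± 0.27) and Sdha (−0.43 ± 0.30), all of the citric acid cycle, had the smallest p (limma adjusted p = 0.614, 0.597 and 0.733, in that order). Left without NaPB 4, they stood at 1.26, 0.55 and −0.23. Of 13 fatty acid synthesis genes limma called none with all arrays and 1 had an unadjusted p below 0.05, and NaPB 4 was the lowest array for 12. Without NaPB 4, 2 of these passed, the elongase gene Elovl6 (log2 2.91) and Thrsp (log2 2.10), a lipogenic regulator. With all arrays they stood at 2.01 ± 0.72 (SE; limma adjusted p = 0.327) and 1.31 ± 0.66 (SE; limma adjusted p = 0.573). Srebf1, the lipogenic transcription factor, stood at −0.71 ± 0.35 (SE; limma adjusted p = 0.551, and −0.39 without NaPB 4). No oxidation gene passed in that fit without NaPB 4, in which limma called 365 of 20738 genes. Whether the lists differ from each other was not tested.

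**Figure D5:**
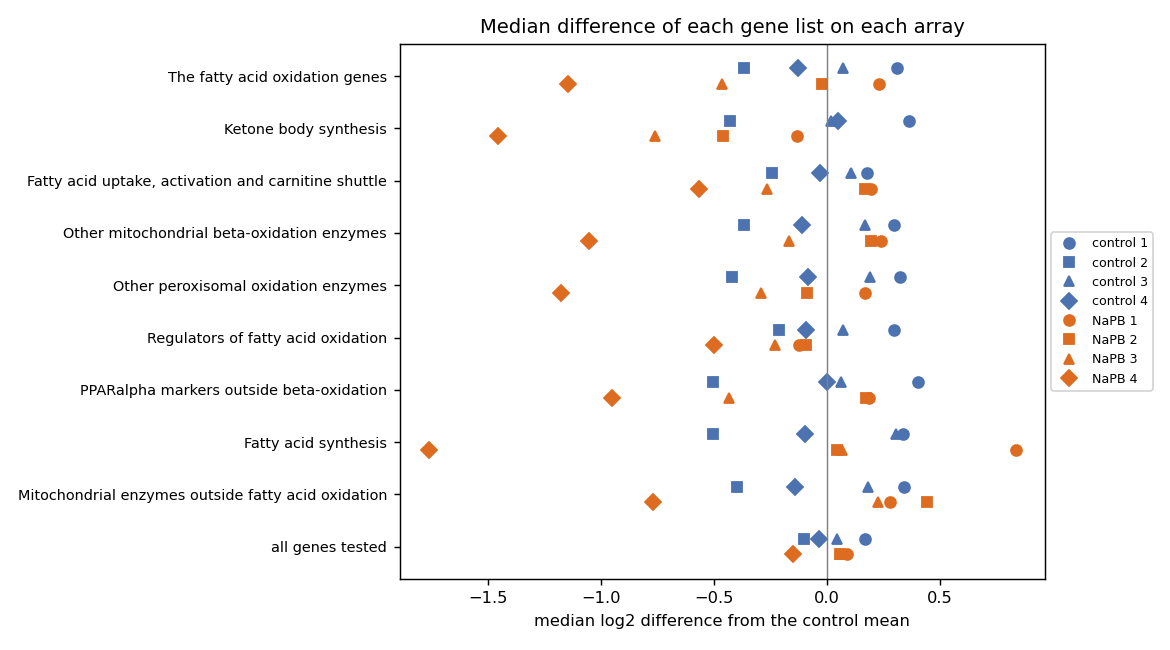
Median log2 difference from the control mean over the genes of each list, for each of 4 control arrays (blue) and 4 NaPB arrays (orange). For the 8 oxidation genes NaPB 4 lies at −1.15 and the other NaPB arrays at −0.46 to 0.23, and NaPB 4 is the lowest array for every list shown, with −0.15 for all genes.

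Markers of other cell types were measured on the same arrays. The summed intensity of 7 adipocyte markers ran from 2.32 to 4.13 on control and 2.48 to 3.36 on NaPB arrays, and that of 7 muscle markers from 3.81 to 6.99 and 3.58 to 4.90, with none called. Kupffer cell and macrophage markers were the list whose summed levels did not overlap between the diets: 8 markers summed to 18.6 to 20.9 on control and 13.5 to 15.3 on NaPB arrays, none called and 1 above 0, with Timd4 at the floor on all arrays. Taken singly, 7.04% of all genes did not overlap between the diets. Of 5 neutrophil markers S100a8 was called, against 1.01% of all genes (summed 29.6 to 124 and 73.5 to 188). The 6 lymphocyte (24.5 to 46.2 and 29.5 to 40.3), 6 endothelial (92.7 to 191 and 117 to 193), 7 stellate cell (27.1 to 45.1 and 19.3 to 34.0), 5 cholangiocyte (1.39 to 4.05 and 2.66 to 4.02), 4 erythroid (47.0 to 83.0 and 35.7 to 77.0) and 6 pancreas markers (3.06 to 4.495 and 4.10 to 4.36) held no called gene. The part of these cells in the values of the oxidation genes was not tested.

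PPARα acts with its partner RXR through direct repeats of the motif AGGTCA, so the promoters of the 8 genes were searched for it. Each gene had 1 window in the RefSeq table, of 250 bases before to 50 after its start. The repeat, AGGTCA and again AGGTCA after any 1 base, sought on both strands, was in none of the 8 windows and in 0.0396% of all 32851 windows of that length. An exact repeat this rare could hardly be met in 8 windows. Its absence here therefore does not tell whether these genes hold such a site. AGGTCA alone, of which the repeat holds 2 copies, was in 3 of the 8, those of Acadm, Acadvl and Cpt1a, against 16.3% of all windows. The 250 bases before the starts of Acadvl and Acadm are shown as examples of windows that hold AGGTCA alone. That of Cpt1a is not shown. Both are read 5′ to 3′ on the minus strand, Acadvl at chr11:70015429-70015678 and Acadm at chr3:153944644-153944893 (GRCm38.p6), with the motif on either strand in capitals.
Acadvl: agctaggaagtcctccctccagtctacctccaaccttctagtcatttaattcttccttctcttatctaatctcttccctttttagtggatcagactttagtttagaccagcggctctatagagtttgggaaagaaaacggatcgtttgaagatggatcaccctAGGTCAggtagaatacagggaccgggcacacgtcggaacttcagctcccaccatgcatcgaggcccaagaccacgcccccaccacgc
Acadm: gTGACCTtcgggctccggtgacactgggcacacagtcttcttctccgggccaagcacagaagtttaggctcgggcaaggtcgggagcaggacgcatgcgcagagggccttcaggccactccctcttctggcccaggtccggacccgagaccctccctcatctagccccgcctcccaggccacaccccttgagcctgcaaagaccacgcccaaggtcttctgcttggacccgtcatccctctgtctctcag
The motif of Acadvl began 87 bases before the start, and that of Acadm lay on the opposite strand at the far end of the window. A match is a description of these letters and not of binding.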

How the data were processed

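Liver RNA was labelled with Cy3 and hybridised to one-colour Agilent arrays, 4 per diet, per the labels. The authors quantified spots with Agilent Feature Extraction 10.7, per the submitters' processing notes. The deposited values are intensities on a linear scale, none missing. Their 75th percentile was close to 1 on each array (0.952 to 0.974), so they had been scaled before deposit; the scaling rule and background correction are not stated. NaPB 2 was deposited in coarser steps, with 3443 distinct values against 62756 to 62839 on the other arrays and a median step of 0.0030 log2 units; without it the median of the 8 genes was −0.35. Livers of the humanized mice that the series title mentions were not analysed here.

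Features were named from the platform's probe table (31465 with 1 symbol, 31511 without), and 3282 symbols were updated through RefSeq tables of GRCm38.p6, used for names. The log2 of the deposited intensity was analysed with no pseudocount or dim filter, each gene by its brightest feature. Diet was the only term in limma 3.58.1 (R 4.3.3; eBayes defaults, two-sided, Benjamini-Hochberg over 20738 genes). Single features were fitted over all 62976. Values after ± are standard errors from limma unless marked SD. The model was tested on simulated data. The genes, lists and alternatives were chosen with earlier results of these data known. Named are the 8 genes, the 3 genes with the smallest p in each related list, the index genes Acaa1b, Ppara, Cyp4a10, Cyp4a14, Pdk4 and Cyp2b10, and the 5 genes most correlated with the mean of the 8. Alternatives were quantile normalization, percentile or median shifts, a dim filter, the mean of all features, all features singly, a pseudocount of 1, a trended robust variance, array weights, a replicate block, a threshold of 0.1 and leaving out arrays. With 4 arrays per diet, precision is limited by their number. Tables and figures used Python 3.11.15 (pandas 2.3.3, numpy 2.4.6, matplotlib 3.10.9).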

Additional observations from a re-analysis of the deposited data

Results flagged for a closer look

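In groups of 4 arrays, a value was looked at again where its gap to the nearest other array, over the group's range on the log2 scale, exceeded Dixon's critical value, which chance does in about 1 of 20 groups; 11 of 72 groups did so. Among the oxidation genes this was Cpt2 on NaPB 4, at 3.05 against 11.3 to 12.8 on the other NaPB arrays. NaPB 4 was likewise far below the other NaPB arrays for Acaa1b (4.59 against 26.0 to 34.6), Elovl6 (0.973 against 10.4 to 14.3), Thrsp (5.01 against 36.6 to 55.0), Srebf1 (0.249 against 0.572 to 0.645) and Cyp2b10 (77.7 against 430 to 521). Control 1 was high for Acadsb (4.89 against 3.42 to 3.44) and Thrsp (14.9 against 9.30 to 9.59). Control 2 was low for Sirt3 (10.2 against 14.9 to 16.0) and Cyp4a14 (0.0753 against 11.5 to 20.2). Control 3 was high for Idh3a (0.232 against 0.147 to 0.154).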

How the results depend on the processing

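None of the 8 oxidation genes was called in any of 20 alternatives, and their smallest limma adjusted p was 0.0873, for Acadvl after quantile normalization. Of 151 single fold changes of the 8 under alternatives, 137 kept their sign and 14 changed it. The count of kept signs includes alternatives that could not change a sign. The dim filter, trended robust variance, replicate block and threshold of 0.1 left each fold change as it was. The percentile and median shifts moved all genes by the same small amount. With array weights Cpt2, Acadm, Acadl and Hadhb stood at 0.45, 0.062, 0.16 and 0.10, and without control 1 and NaPB 4 together at 0.61, 0.093, 0.19 and 0.25. Without those arrays Cpt1a, Acadvl, Hadha and Ehhadh stood at −0.74, −0.19, −0.34 and −0.13. Leaving out 1 array at a time gave −0.23 to 0.46 for Cpt2, −0.34 to 0.060 for Acadm, −0.28 to 0.17 for Acadl and −0.42 to 0.10 for Hadhb. The median of the 8 ran from −0.51 to −0.06 with 1 array left out. Pdk4 and Bdh1 stood at 0.28 and 0.039 with array weights, at 0.45 and 0.16 without both arrays, and between −0.64 and 0.32 and between −0.44 and 0.029 with 1 array left out. Over all genes the count called was 328 after quantile normalization, 111 after the median shift, 643 of all features singly, 812 with array weights, 364 at a threshold of 0.1, 570 without control 1 and NaPB 4 together, and 88 (without NaPB 1) to 365 (without NaPB 4) with 1 array left out. Acadl was not tested under the dim filter. The cause of these changes was not tested. With the replicate block 135 genes were called and 0 of the 8; same-numbered arrays did not deviate together throughout (correlations of 0.23, −0.29, 0.04 and 0.23 over genes), so the numbers were not taken as pairs.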
